A study of Mus musculus with 2 samples.

Results

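Vesicle tethering complexes catch a transport vesicle at its target membrane before the membranes fuse. The genes described here encode 43 subunits of 6 families of such complexes, found by symbol among the 54532 genes of an RNA sequencing table. They were grouped as the TRAPP core (8 genes), the subunit Trappc10 of TRAPPII (1 gene), the TRAPPIII subunits (4 genes), exocyst (9 genes), COG (8 genes), GARP (4 genes), Dsl1 (3 genes) and HOPS (6 genes). All 43 were present, each on 1 line, and 42 averaged at least 1 FPKM over the libraries (FPKM counts sequenced fragments per kilobase of a gene and per unit of library size). Vps51 was the exception.

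The samples were mouse material labelled adipose, of 2 genotypes, Trappc9 knock out (KO) and wild type (WT), with 1 library of each. The design text describes fat pads of the abdomen from 3 mice of each genotype at 3 to 4 weeks of age, digested with collagenase, whereas the titles call the samples stem cells of adipose tissue and the extraction label speaks of frozen pads. The allele, its strain, and whether the mice were pooled into 1 library are not given in the sources used here. Depth was 14783728 fragments in the library labelled KO and 13705193 in the library labelled WT. With 1 library per genotype no difference has a replicate check and no p-value is given. Each KO over WT ratio carries a 95% Clopper-Pearson interval, which covers counting error alone, not the spread between mice or preparations.

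TRAPP complexes share a core of small subunits that activates Rab GTPases, the switches that mark membranes. TRAPPII adds Trappc9 and Trappc10 and acts at the Golgi and on recycling membranes, and TRAPPIII adds Trappc8, Trappc11, Trappc12 and Trappc13 and acts in early secretion and autophagy. The exocyst tethers vesicles at the plasma membrane, in adipocytes among them those that carry the glucose transporter Glut4. COG tethers within the Golgi, GARP between endosomes and the trans-Golgi, Dsl1 between Golgi and endoplasmic reticulum, and HOPS at late endosomes and lysosomes.

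The targeted gene was examined first. Trappc9 (ENSMUSG00000047921, chromosome 15, 72589620 to 73061204, minus strand, mm10 coordinates) had 1432 fragments and 12.6 FPKM in the library labelled KO, against 1117 fragments and 9.94 FPKM in the library labelled WT. The ratio was 1.27 with an interval of 1.17 to 1.37, so the whole-gene value was higher in the library labelled KO beyond counting error. As it covers all exons together it does not check for a deletion of part of the gene. The libraries are called by their labels for that reason.

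Markers described what both libraries held. Adipocyte markers were low, apart from Fabp4, which also marks other cells, with a summed level of 39.1 FPKM in the library labelled KO and 42.3 FPKM in the library labelled WT over 9 genes, none at 0. Fabp4 made up most of this sum, at 27.0 FPKM in the library labelled KO and 25.1 FPKM in the library labelled WT, while Adipoq was at 0.506 and 2.30 FPKM in that order. Of the 7 adipocyte markers tested, 1 was higher beyond counting error and 2 were lower. The 12 markers of epididymal epithelium, the lining of the duct in which sperm mature, summed to 26165 FPKM in the library labelled KO and 18473 FPKM in the library labelled WT. Of these, 11 were higher in the library labelled KO beyond counting error, 1 was lower and none was at 0. The 7 spermatid markers summed to 172 and 35.8 FPKM in the same order, with 6 of 6 tested higher, and the 7 proliferation markers to 30.6 and 62.3 FPKM, with 7 of 7 lower. Adipose progenitor markers summed to 197 FPKM in the library labelled KO and 220 FPKM in the library labelled WT, with 3 of 8 higher and 4 lower. In the same order, the lower ones were Cd34 (27.4 and 52.6 FPKM), Dlk1 (4.35 and 8.80), Pi16 (12.2 and 18.2) and Pdgfra (30.7 and 34.2). The higher ones were Ly6a (78.9 and 67.5 FPKM), Dpp4 (21.5 and 18.9) and Icam1 (15.0 and 12.8). Macrophage markers summed to 42.8 and 45.8 FPKM, with 1 of 5 lower, and endothelial markers to 40.0 and 33.4 FPKM, with 4 of 5 higher. All these marker counts are read beside 24.6% higher and 17.6% lower among protein-coding genes that averaged at least 1 FPKM. The part of these differences in the values below was not tested, and in bulk RNA fewer cells of a type and less RNA per cell cannot be told apart.

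Differences in the tethering genes were small. On the log2((KO + 1)/(WT + 1)) scale, with a pseudocount of 1 FPKM that understates the change of low genes, the 42 tested members lay between −0.29 and 0.40 with a median of 0.09, against a median of 0.02 for the 13084 protein-coding genes that averaged at least 1 FPKM, called all genes tested below. A threshold of 0.32 on this scale was passed by 4 members, Trappc6a, Trappc3, Vps33a and Exoc6, all higher in the library labelled KO. After the rescaling to TPM described below, 0 members passed it upwards and 7 downwards, against 644 and 3145 of the 13084 genes tested. At the deposited scaling the 4 were 9.52% of the tested members, against 9.31% of all genes tested. No member passed it downwards, against 7.64% of all genes tested, and none reached 2-fold in either direction, against 0.948% higher and 0.29% lower among all genes tested.

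A gene was called higher or lower beyond counting error where its interval excluded a ratio of 1. This held for 10 members higher in the library labelled KO, or 23.8% of the 42, against 24.6% of all genes tested, and for 5 lower, or 11.9%, against 17.6%. The share of higher members was thus close to that of genes in general. The higher ones were Trappc3, Trappc4, Trappc6a, Trappc10, Trappc12, Exoc6, Exoc7, Vps33a, Vps41 and Vps54, and the lower ones were Cog6, Exoc3, Exoc4, Rint1 and Zw10. The split depended on how the libraries were scaled. After rescaling to TPM (FPKM scaled to equal sums in both libraries) 3 members (of all genes tested, 7.88%) lay higher and 18 (of all genes tested, 48.4%) lay lower. After rescaling without the 100 most abundant genes there were 6 higher and 10 lower members, beside 13.6% and 31.9% of all genes tested. Trappc3, Trappc6a and Vps33a were the 3 that were higher under TPM as well, and Cog6, Exoc3, Exoc4, Rint1 and Zw10 were lower beyond counting error under both rescalings.

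**Figure D1:**
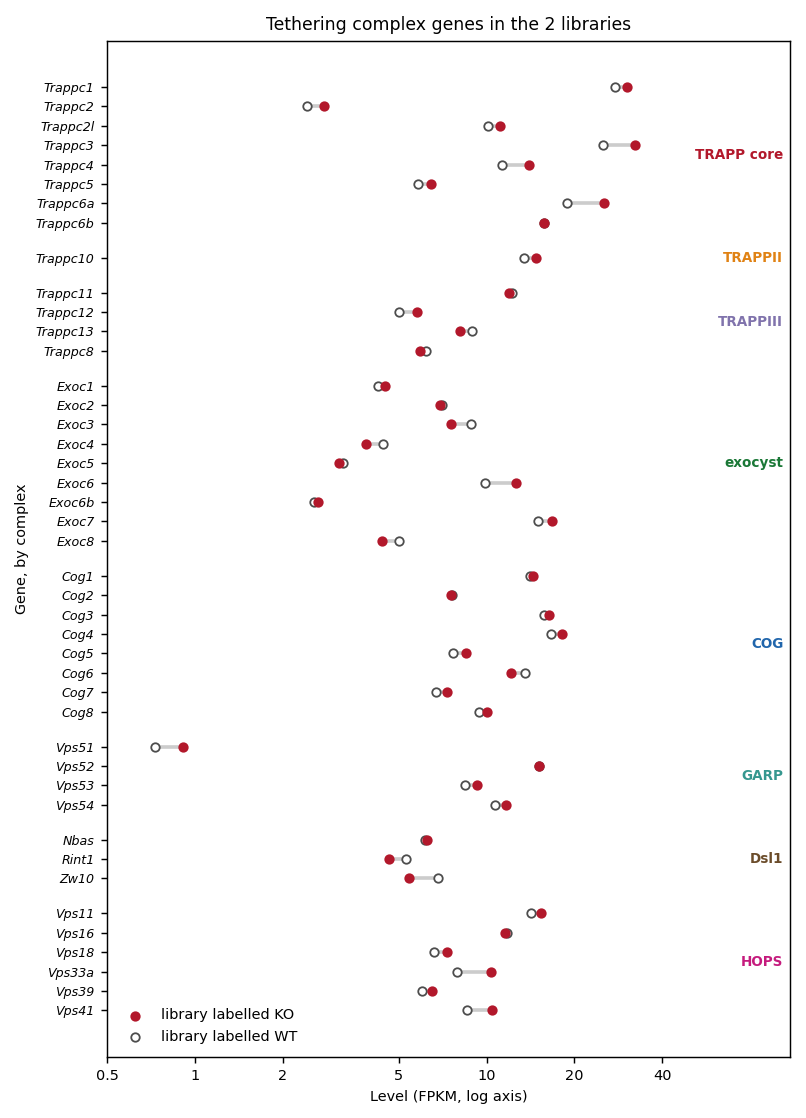
Levels of the 43 tethering genes in FPKM (log axis), grouped by complex, with a filled point for the library labelled KO and an open point for the library labelled WT. Trappc3 and Trappc1 stood highest and Vps51 lowest in both libraries, and the 2 points of a gene lie close together compared with the distances between genes.

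**Figure D2:**
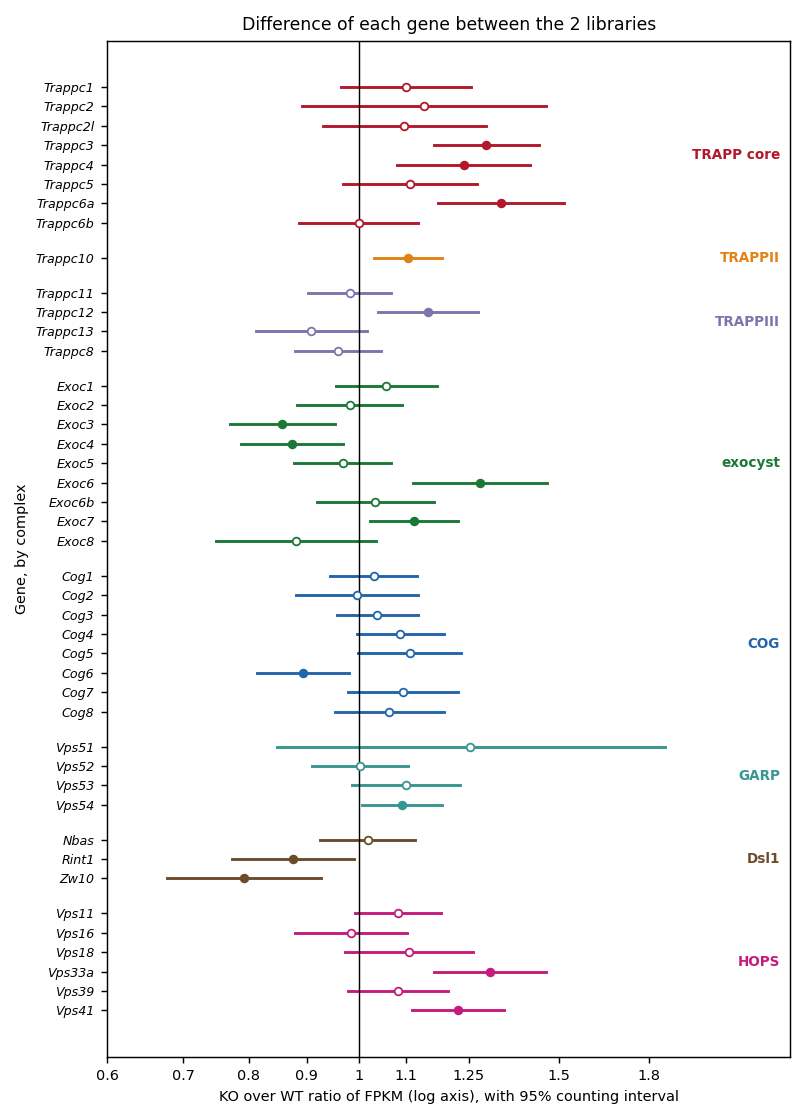
KO over WT ratio of FPKM for each of the 43 genes (log axis) with its 95% counting interval as a bar, coloured by complex. Filled points mark the 15 genes whose interval excluded 1 at the deposited scaling, of which 10 lie to the right, and after rescaling to TPM only 3 lie to the right of 1 beyond counting error.

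The stretches around the start sites of the 4 members past the 0.32 threshold, and of Zw10, Exoc3 and Rint1, the 3 with the lowest log2 ratios, show the starting points of the genes at both ends of the range. Each window runs from 250 bases before to 50 after a RefSeq start (GRCm38.p6) and is written 5′ to 3′ on the gene's strand. Capitals mark matches to any of 7 motifs on either strand, the GC box GGGCGG, the E-box CACGTG, the ETS motif CCGGAAG, the NRF1 motif GCGCATGC, the YY1 motif AAGATGGC, the CCAAT box and the TATA box TATAAA, chosen after the values were seen.
Trappc3 chr4:126262155-126262454 (+): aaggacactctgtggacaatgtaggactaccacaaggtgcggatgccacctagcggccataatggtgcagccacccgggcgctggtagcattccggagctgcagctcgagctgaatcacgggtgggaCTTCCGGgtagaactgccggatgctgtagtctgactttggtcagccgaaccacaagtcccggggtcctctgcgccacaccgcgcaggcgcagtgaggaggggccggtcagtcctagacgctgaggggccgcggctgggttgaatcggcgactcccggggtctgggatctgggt
Trappc6a chr7:19508420-19508719 (+): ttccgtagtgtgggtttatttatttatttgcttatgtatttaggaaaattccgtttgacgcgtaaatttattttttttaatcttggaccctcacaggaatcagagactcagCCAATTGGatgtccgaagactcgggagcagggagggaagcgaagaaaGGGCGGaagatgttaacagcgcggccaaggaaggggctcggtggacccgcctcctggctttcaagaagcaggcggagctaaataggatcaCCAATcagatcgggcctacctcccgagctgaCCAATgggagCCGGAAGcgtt
Exoc6 chr19:37550168-37550467 (+): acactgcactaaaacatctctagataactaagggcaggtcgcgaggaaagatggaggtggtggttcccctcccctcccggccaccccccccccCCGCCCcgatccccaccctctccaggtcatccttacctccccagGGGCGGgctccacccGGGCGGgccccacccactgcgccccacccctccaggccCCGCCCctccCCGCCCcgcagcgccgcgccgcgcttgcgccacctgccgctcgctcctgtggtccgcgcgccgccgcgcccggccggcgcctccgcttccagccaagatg
Vps33a chr5:123572966-123573265 (-): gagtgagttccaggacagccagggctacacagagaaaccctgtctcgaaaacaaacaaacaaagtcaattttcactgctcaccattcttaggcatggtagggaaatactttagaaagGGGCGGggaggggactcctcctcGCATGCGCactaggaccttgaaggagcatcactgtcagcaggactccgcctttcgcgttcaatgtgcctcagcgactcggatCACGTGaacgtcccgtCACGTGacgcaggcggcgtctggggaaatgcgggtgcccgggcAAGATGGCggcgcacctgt
Zw10 chr9:49055331-49055630 (+): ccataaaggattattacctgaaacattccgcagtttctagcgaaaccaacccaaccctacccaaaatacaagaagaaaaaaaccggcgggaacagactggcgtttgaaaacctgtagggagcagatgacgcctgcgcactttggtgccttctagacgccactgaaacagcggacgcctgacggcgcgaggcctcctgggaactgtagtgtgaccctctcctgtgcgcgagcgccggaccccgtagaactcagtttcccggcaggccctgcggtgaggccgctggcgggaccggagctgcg
Exoc3 chr13:74208651-74208950 (-): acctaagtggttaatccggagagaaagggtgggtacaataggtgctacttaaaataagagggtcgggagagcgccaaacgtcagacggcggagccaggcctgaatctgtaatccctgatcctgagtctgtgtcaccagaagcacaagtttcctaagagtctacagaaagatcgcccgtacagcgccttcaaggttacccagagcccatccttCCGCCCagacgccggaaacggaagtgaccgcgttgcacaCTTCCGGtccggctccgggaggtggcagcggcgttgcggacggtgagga
Rint1 chr5:23787461-23787760 (+): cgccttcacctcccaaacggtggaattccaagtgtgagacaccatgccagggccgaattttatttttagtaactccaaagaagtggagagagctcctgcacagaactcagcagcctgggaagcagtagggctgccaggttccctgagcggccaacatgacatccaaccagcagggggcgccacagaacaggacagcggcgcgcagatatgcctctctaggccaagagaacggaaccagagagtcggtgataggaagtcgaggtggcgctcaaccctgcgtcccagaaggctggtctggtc
The Trappc6a window held 4 CCAAT matches, 1 GC box and 1 ETS match. The Vps33a window held 2 E-boxes, 1 GC box, 1 NRF1 and 1 YY1 match, the Exoc6 window 5 GC boxes and the Trappc3 window 1 ETS match. The Exoc3 window held 1 GC box and 1 ETS match, and none of the 7 motifs was in the Zw10 and Rint1 windows. A match is a description of letters and not of a bound factor.

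Windows were found for 37 of the 43 members. The ETS motif CCGGAAG was in a window of 16 of these 37 genes (43.2%), against 19.1% of 10262 tested genes with a window. Counted by window, it was in 47.7% of 44 member windows, 16.3% of 13097 windows of tested genes and 8.86% of all 32851 windows. The 16 included Trappc3, Trappc6a, Trappc6b, Trappc10 and Trappc12, 5 COG genes, 3 exocyst genes, Vps18, Vps52 and Vps53. The YY1 motif was in 4 members (10.8%), against 4.96% of tested genes. The GC box was in 62.2% of the members against 67.6% of tested genes, the E-box in 13.5% against 11.6%, the NRF1 motif in 5.41% against 5.82%, the CCAAT box in 32.4% against 42.6%, and the TATA box in 10.8% against 8.88%.

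The TRAPP core was the family with the largest summed difference at the deposited scaling. Its 8 genes summed to 138 FPKM in the library labelled KO and 117 FPKM in the library labelled WT. Of the 8, 7 had log2 ratios above 0. Beyond counting error 3 (37.5%) lay higher and 0 lay lower, against 24.6% and 17.6% of all genes tested. For tested genes of up to 2000 bases these shares were 29.6% and 12.7%. Among all genes tested 54.7% had log2 ratios above 0, and under TPM 3 of the 8 core genes did. The median log2 ratio was 0.13, or 0.11 above the median of all genes, and turned to −0.03 under TPM, where 7 of the 8 still lay above the median of all genes.

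Trappc6a (ENSMUSG00000002043, chromosome 7, 19508395 to 19516145) encodes one of a pair of alternative small subunits. It stood at 25.3 FPKM (574 fragments) in the library labelled KO and 18.9 FPKM (426 fragments) in the library labelled WT, a ratio of 1.33 with an interval of 1.18 to 1.52. Its paralogue Trappc6b was level, at 15.7 FPKM in both libraries, with a ratio of 0.999 and an interval of 0.886 to 1.13. Trappc6a was therefore 1.61 times Trappc6b in the library labelled KO and 1.20 times in the library labelled WT. The ratio of these ratios, which no scaling of the libraries can move, was 1.34 with a conditional exact 95% interval of 1.12 to 1.59. No 50-base word was shared between the annotated transcripts of the pair.

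Trappc3, whose product sits at the centre of the core and carries a lipid, stood at 32.4 FPKM (804 fragments) in the library labelled KO and 25.0 FPKM (615 fragments) in the library labelled WT, with a ratio of 1.29 (interval 1.16 to 1.44). Trappc4, part of the surface that acts on Rab1, was at 13.9 FPKM in the library labelled KO and 11.3 FPKM in the library labelled WT, with a ratio of 1.24 (1.08 to 1.42). These were the other core genes higher beyond counting error. On the opposite strand Rps25, a ribosomal protein gene, covers 18.9% of the exon bases of Trappc4 in GENCODE M21, and stood at 155 and 136 FPKM in the same order of libraries. Reads of the shared bases cannot be told apart without strand, and the part of Rps25 in the Trappc4 value was not tested.

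The remaining core genes had intervals that included 1. Trappc1 was at 30.3 FPKM in the library labelled KO and 27.6 FPKM in the library labelled WT, with a ratio of 1.10 (0.964 to 1.255). Trappc5 was at 6.45 and 5.81 FPKM and Trappc2l at 11.1 and 10.1 FPKM in that order, with ratios of 1.11 and 1.10. Trappc2, whose human counterpart is mutated in a skeletal dysplasia, was the lowest of the core at 2.76 FPKM in the library labelled KO and 2.42 FPKM in the library labelled WT, from 144 and 125 fragments. Trappc2 over its relative Trappc2l was 0.249 in the library labelled KO and 0.239 in the library labelled WT, a ratio of ratios of 1.04 with an interval of 0.771 to 1.40. The highest core subunit, Trappc3 in the library labelled KO and Trappc1 in the library labelled WT, exceeded Trappc2 by 11.7 and 11.4 times. This was the widest range of per-length levels within a complex among the genes tested here. With Vps51, left out by the filter of 1 FPKM, the range within GARP would be wider.

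TRAPPII and TRAPPIII subunits did not follow the core as a block. Trappc10, the partner of Trappc9 in TRAPPII, was at 14.8 FPKM (1722 fragments) in the library labelled KO and 13.4 FPKM (1544 fragments) in the library labelled WT, with a ratio of 1.10 (1.03 to 1.18). The 4 TRAPPIII genes summed to 31.7 FPKM in the library labelled KO and 32.3 FPKM in the library labelled WT, with a median log2 ratio of −0.04. Trappc12, the TRAPPIII gene that was higher beyond counting error, was at 5.78 FPKM in the library labelled KO and 5.02 FPKM in the library labelled WT, a ratio of 1.15 (1.04 to 1.27). The other 3 lay below 1 with intervals that included it at the deposited scaling. Under TPM these 3 were lower beyond counting error, against 48.4% of all genes tested. The same 3 were lower without the 100 most abundant genes, against 31.9%. Trappc10 and Trappc12 were neither higher nor lower beyond counting error under both rescalings. Trappc11 was at 11.9 FPKM in the library labelled KO and 12.2 FPKM in the library labelled WT, and Trappc8 at 5.93 and 6.18 FPKM in the same order. Trappc13 had 8.09 FPKM in the library labelled KO and 8.91 FPKM in the library labelled WT, a ratio of 0.908 (0.811 to 1.02).

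The fragments of the core relative to those of TRAPPIII were compared within each library, which removes the scaling. The ratio of ratios was 1.18 with an interval of 1.10 to 1.26, so the core stood higher relative to TRAPPIII in the library labelled KO beyond counting error. For all 13 TRAPP genes relative to the other 30 tethering genes it was 1.04 (1.01 to 1.08). Gene length differed along with these families, from 1112 to 4957 bases in the core and from 5166 to 12045 bases in TRAPPIII. Among all genes tested, the median log2 ratio was 0.08 for the 2102 genes of up to 2000 bases, 0.03 for 5761 genes over that and up to 5000 bases and 0.01 for 5221 longer genes. The share of genes higher by at least 0.32 on the log2 scale was 20.9%, 9.49% and 4.42% in these classes. Relative to genes of their own length class, the median log2 ratio was 0.11 for the core and −0.04 for TRAPPIII, and the part of length in the contrast was not tested further.

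**Figure D3:**
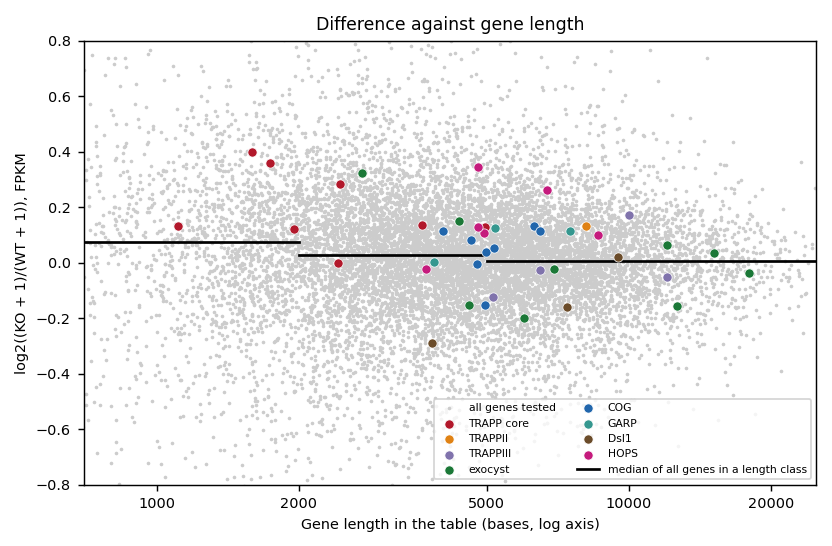
log2((KO + 1)/(WT + 1)) of FPKM against gene length in bases (log axis) for all genes tested (grey) and the 42 tested tethering genes (coloured by complex), with black lines at the medians of all genes in 3 length classes, 0.08, 0.03 and 0.01. The TRAPP core genes lie to the left of the TRAPPIII genes, and 501 genes outside the axes are not drawn.

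At the deposited scaling exocyst genes went in both directions. The 9 genes summed to 62.4 FPKM in the library labelled KO and 60.2 FPKM in the library labelled WT, with a median log2 ratio of −0.02. Of these, 2 (22.2%) were higher beyond counting error, Exoc6 and Exoc7, and 2 (22.2%) were lower, Exoc3 and Exoc4. The shares of all genes tested were 24.6% and 17.6%. Under TPM 0 lay higher and 5 lay lower beyond counting error, against 7.88% and 48.4% of all genes tested. These 5 were Exoc2, Exoc3, Exoc4, Exoc5 and Exoc8. Exoc6, which encodes the subunit that binds Rab11 on vesicles, was at 12.7 FPKM (494 fragments) in the library labelled KO and 9.91 FPKM (383 fragments) in the library labelled WT, a ratio of 1.28 (1.12 to 1.46). Its length in the table, 2729 bases, is shorter than the 3543 exon bases of GENCODE M21, so its level relative to other genes is uncertain, which does not touch the ratio between libraries. Its paralogue Exoc6b was at 2.65 FPKM in the library labelled KO and 2.57 FPKM in the library labelled WT, with a ratio of 1.03 (0.918 to 1.16).

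Exoc6 was 4.77 times Exoc6b in the library labelled KO and 3.86 times in the library labelled WT. The ratio of ratios was 1.24 with an interval of 1.03 to 1.48, and the pair shared no 50-base word. As for Trappc6a and Trappc6b, the more abundant paralogue gained on the other in the library labelled KO. For Trappc2 over Trappc2l the interval, 0.771 to 1.40, included 1. In the 2 pairs the gaining gene was the shorter, at 1589 against 2419 and 2729 against 15133 bases. The part of length in these ratios was not tested. Exoc7, which encodes a subunit that binds lipids of the plasma membrane, was at 16.8 FPKM in the library labelled KO and 15.0 FPKM in the library labelled WT, a ratio of 1.12 (1.02 to 1.22).

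The exocyst genes lower at the deposited scaling encode neighbouring subunits of one of the 2 subcomplexes. Exoc3 was at 7.57 FPKM (650 fragments) in the library labelled KO and 8.85 FPKM (752 fragments) in the library labelled WT, a ratio of 0.856 (0.769 to 0.952). Exoc4 was at 3.85 FPKM in the library labelled KO and 4.41 FPKM in the library labelled WT, a ratio of 0.874 (0.788 to 0.968). Summed over that subcomplex, Exoc1 to Exoc4, levels were 22.8 FPKM in the library labelled KO and 24.6 FPKM in the library labelled WT, and over the other one, Exoc5 to Exoc8 with Exoc6b, 39.6 and 35.7 FPKM in the same order. Exoc2 and Exoc8, whose products bind the GTPases RalA and RalB, were at 6.92 and 4.39 FPKM in the library labelled KO and at 7.05 and 4.99 FPKM in the library labelled WT. Exoc1 was at 4.50 and 4.26 FPKM and Exoc5 at 3.12 and 3.22 FPKM, in the library labelled KO and then WT. At the deposited scaling both intervals included 1.

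COG genes differed little. The 8 genes summed to 94.4 FPKM in the library labelled KO and 91.3 FPKM in the library labelled WT, and their log2 ratios ran from −0.15 to 0.13 with a median of 0.07, or −0.13 under TPM. At the deposited scaling the gene outside counting error was Cog6, with a ratio of 0.893 (0.813 to 0.980). It was lower at 12.1 FPKM (859 fragments) in the library labelled KO against 13.6 FPKM (953 fragments) in the library labelled WT. Under TPM 4 COG genes were lower and 0 higher beyond counting error, against 48.4% and 7.88% of all genes tested. Lobe A, Cog1 to Cog4, summed to 56.5 FPKM in the library labelled KO and 54.0 FPKM in the library labelled WT, and lobe B, Cog5 to Cog8, to 38.0 and 37.3 FPKM. The balance of the lobes was not detectably different at this depth, with a ratio of ratios of 1.02 (0.95 to 1.09).

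Cog4 and Cog5 had intervals that reached just below 1. Cog4, a lobe A subunit that contacts Golgi fusion proteins, was at 18.1 FPKM in the library labelled KO and 16.7 FPKM in the library labelled WT, a ratio of 1.09 (0.995 to 1.19). Cog5 was at 8.51 and 7.68 FPKM in that order, with a ratio of 1.11 (0.999 to 1.23), and 24.0% of its exon bases are shared with Hbp1 on the other strand. Cog3 and Cog1 were at 16.3 and 14.5 FPKM in the library labelled KO and at 15.7 and 14.0 FPKM in the library labelled WT. Cog2, Cog7 and Cog8 were at 7.56, 7.31 and 10.0 FPKM in the library labelled KO and at 7.59, 6.69 and 9.41 FPKM in the library labelled WT. Of the Cog8 exon bases, 28.2% are shared with Pdf on the same strand, so the split of reads between these genes is uncertain.

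GARP joins Vps51, Vps52, Vps53 and Vps54, of which all but Vps54 also serve EARP, a complex of recycling endosomes. The median log2 ratio of the 3 tested genes was 0.11, or −0.07 under TPM. Vps54 was at 11.6 FPKM (1248 fragments) in the library labelled KO and 10.6 FPKM (1133 fragments) in the library labelled WT, a ratio of 1.09 (1.01 to 1.18), the GARP gene that was higher beyond counting error. Vps53 was at 9.27 FPKM in the library labelled KO and 8.43 FPKM in the library labelled WT, and Vps52 was level at 15.2 and 15.1 FPKM. Vps51 stood apart from its partners at 0.913 FPKM (62 fragments) in the library labelled KO and 0.729 FPKM (49 fragments) in the library labelled WT, with a ratio of 1.253 and a wide interval of 0.848 to 1.86. In GENCODE M21 its exons overlap those of Tm7sf2 over 532 bases and of Gm28374 over 281 bases on the same strand, and Gm28374 was at 0 in both libraries. No source used here gives how reads of overlapping genes were assigned, and the part of this overlap in the low Vps51 value was not tested.

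Dsl1 was the family lowest relative to all genes. Its 3 genes summed to 16.3 FPKM in the library labelled KO and 18.3 FPKM in the library labelled WT, with a median log2 ratio of −0.16. Zw10, whose product also serves the kinetochore in mitosis, was at 5.41 FPKM (296 fragments) in the library labelled KO and 6.83 FPKM (370 fragments) in the library labelled WT, a ratio of 0.792 (0.678 to 0.926). Rint1 was at 4.62 FPKM (489 fragments) in the library labelled KO and 5.27 FPKM (553 fragments) in the library labelled WT, a ratio of 0.876 (0.774 to 0.991). Nbas, the largest of the 3 subunits' genes by exon length, was level at 6.27 FPKM in the library labelled KO and 6.16 FPKM in the library labelled WT. The 7 proliferation markers were lower in the same library, among them Mki67 at 6.57 FPKM in the library labelled KO and 12.5 FPKM in the library labelled WT, and their part in the Zw10 and Rint1 values was not tested.

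Of the 6 HOPS genes, 5 had log2 ratios above 0, against 54.7% of all genes tested, and 2 did under TPM. They summed to 61.6 FPKM in the library labelled KO and 55.1 FPKM in the library labelled WT, with a median log2 ratio of 0.12 that became −0.07 under TPM, where 5 of the 6 lay above the median of all genes. Vps33a, the subunit that guides assembly of fusion proteins, was at 10.3 FPKM (709 fragments) in the library labelled KO and 7.93 FPKM (538 fragments) in the library labelled WT, a ratio of 1.30 (1.16 to 1.46). Vps41, specific to HOPS, was at 10.5 FPKM (1008 fragments) in the library labelled KO and 8.56 FPKM (816 fragments) in the library labelled WT, a ratio of 1.22 (1.11 to 1.34). These 2 (33.3%) were the HOPS genes higher beyond counting error, and 0 were lower, against 24.6% and 17.6% of all genes tested. Under TPM 1, Vps33a, was higher and 1, Vps16, lower, against 7.88% and 48.4%.

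Of the core that HOPS shares with the early endosomal complex CORVET, Vps11 was at 15.3 FPKM in the library labelled KO and 14.2 FPKM in the library labelled WT, and Vps18 at 7.33 and 6.62 FPKM in that order. Vps16, the subunit that holds Vps33a, was level at 11.6 FPKM in the library labelled KO and 11.8 FPKM in the library labelled WT. Vps39, the other HOPS-specific subunit, was at 6.50 and 6.01 FPKM, with a ratio of 1.08 (0.978 to 1.20). The fragments of HOPS relative to those of the exocyst differed between the libraries by a factor of 1.13 (1.07 to 1.19), and relative to those of Dsl1 by 1.22 (1.12 to 1.32), both free of the scaling and covering counting error alone. These family contrasts were not planned. They set a median log2 ratio of 0.12 against −0.02 and −0.16, so they restate these differences and are no separate support.

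**Figure D4:**
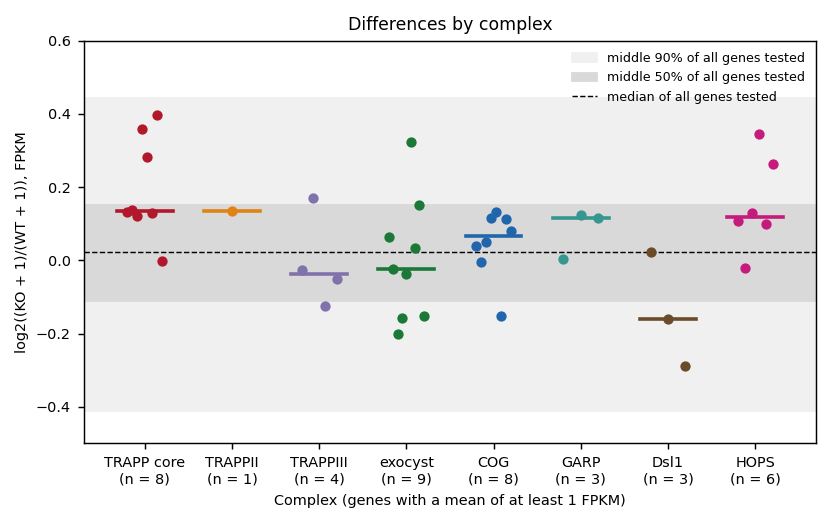
log2((KO + 1)/(WT + 1)) of FPKM for the 42 tested genes by complex, with a bar at each median, over bands for the middle 50% and 90% of all genes tested and a dashed line at their median of 0.02. The medians are 0.13 for the TRAPP core and −0.16 for Dsl1, all members lie within the middle 90%, and under TPM the TRAPP core median is −0.03.

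The start sites of tethering genes often stood close to another gene. By the deposited gene coordinates, for 18 of the 43 members (41.9%) a protein-coding gene on the opposite strand started within 1000 bases. The share was 15.5% of all genes tested. Trappc6a and Bloc1s3, which encodes a subunit of the lysosome-related organelle complex BLOC-1, started 28 bases apart by these coordinates and had like ratios. The RefSeq start of the Trappc6a window printed above lies downstream of this gene start. Bloc1s3 was at 5.94 FPKM (271 fragments) in the library labelled KO and 4.54 FPKM (205 fragments) in the library labelled WT, a ratio of 1.31 (1.09 to 1.58), beside 1.33 for Trappc6a. Galns, a lysosomal enzyme gene that starts 177 bases from Trappc2l, had a ratio of 1.43 (1.20 to 1.70). It was at 8.49 FPKM in the library labelled KO and 5.94 FPKM in the library labelled WT. Trappc2l had a ratio of 1.10, with an interval of 0.930 to 1.29 that included 1. Further pairs, picked like these after the values were seen, went apart. Cntrob, 205 bases from Trappc1, was at 2.75 FPKM in the library labelled KO and 4.25 FPKM in the library labelled WT, a ratio of 0.647 beside 1.10 for Trappc1, and Rps18, 189 bases from Vps52, had a ratio of 1.22 beside 1.00.

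**Figure D5:**
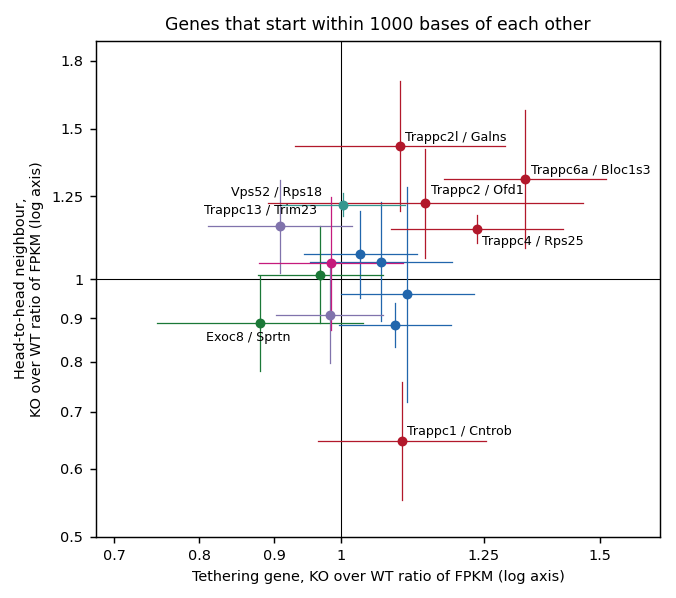
KO over WT ratio of FPKM of 15 tethering genes (horizontal, log axis) and of their head-to-head neighbours (vertical, log axis), for pairs in which both genes had a mean of at least 1 FPKM, with 95% counting intervals as lines and colours by complex. Trappc6a and Bloc1s3 lie together at 1.33 and 1.31, while Trappc1 and Cntrob lie at 1.10 and 0.647.

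Genes that work with these tethers, in 6 lists, had log2 ratios between −0.26 and 0.44. Their counts of genes beyond counting error are at the deposited scaling and are read beside 24.6% higher and 17.6% lower among all genes tested. Among genes averaging at least 5 FPKM these shares were 30.3% and 16.4%. Counts of these lists under TPM, where the shares of all genes tested were 7.88% and 48.4%, are not given. Of 9 Rab genes linked to TRAPP, 5 (55.6%) were higher beyond counting error and 0 lower, with a median log2 ratio of 0.10. Apart from Rab43, the higher ones had ratios of 1.07 to 1.14. Rab43 was at 1.86 FPKM in the library labelled KO and 1.26 FPKM in the library labelled WT, and Rab11a, a recycling Rab, at 25.9 and 22.7 FPKM, while Rab19 and Rab30 lay below 1 with intervals that included it. Of 17 golgins and other long tethers, 8 (47.1%) were higher and 1 lower (median 0.08). Gorasp1, which stacks Golgi cisternae, was at 19.8 FPKM in the library labelled KO and 14.3 FPKM in the library labelled WT, a ratio of 1.39 (1.27 to 1.52), Gcc2 was at 7.83 and 6.69 FPKM, and Blzf1 was lower at 5.08 FPKM in the library labelled KO against 6.28 FPKM in the library labelled WT. The medians are read beside 0.02 for all genes, and under TPM all genes moved by −0.19.

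The relatives of HOPS and GARP outside the members included both CORVET-specific genes, which were higher beyond counting error. Tgfbrap1 was at 6.38 FPKM in the library labelled KO and 4.94 FPKM in the library labelled WT, a ratio of 1.29 (1.18 to 1.42), and Vps8 at 4.81 and 3.82 FPKM, a ratio of 1.26 (1.11 to 1.43). Vps33b and Vipas39, which form a separate pair, were level, at 6.36 and 10.0 FPKM in the library labelled KO and at 6.41 and 10.4 FPKM in the library labelled WT. In the list of 5 genes that holds them 2 were higher and 0 lower. Of 25 SNARE and related fusion genes, 9 (36.0%, against 24.6% of all genes tested) were higher and 0 lower, with a median of 0.06, led by Use1, a partner of Dsl1, at 41.9 FPKM in the library labelled KO and 32.8 FPKM in the library labelled WT, and Vamp8, a late endosomal SNARE, at 26.1 and 20.6 FPKM.

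Coat and exocyst GTPase genes were closest to the median of all genes. Of 19 COPII and COPI genes, which shape the vesicles that TRAPP and Dsl1 receive, 5 (26.3%) were higher and 1 lower (median 0.03), with the share of higher genes near the 24.6% of all genes tested. Sar1b, a GTPase that starts the COPII coat, was at 53.6 FPKM in the library labelled KO and 42.0 FPKM in the library labelled WT, and Sec23a was lower at 13.9 FPKM in the library labelled KO against 15.9 FPKM in the library labelled WT. Of 9 GTPases and regulators of the exocyst, 2 (22.2%) were higher and 1 lower (median 0.02), again near that share. Rhoq was at 16.5 FPKM in the library labelled KO and 13.9 FPKM in the library labelled WT, and Arf6 was lower at 79.0 FPKM in the library labelled KO against 88.0 FPKM in the library labelled WT.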

How the data were processed

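The deposited values are FPKM, 1 for each gene in each library, given with gene length, position and biotype. The aligner HISAT2 2.0.5 is listed, and mm10 is listed beside hg38, per the submitters' processing notes. No source used here names the counting program. Libraries were made from 1 µg of total RNA with an Illumina TruSeq RNA kit, per the labels' protocols. FPKM times length, divided by a step common to the genes of a library, was whole within 0.01 for 100% of values, which gave the fragments behind each value. The recovery of fragments was tested on simulated data. The deposited scaling was kept: its library denominators had a KO over WT ratio of 1.01, against 1.08 for the fragment totals.

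Intervals are exact Clopper-Pearson (ratios) or conditional exact odds ratios (ratios of ratios), at 95%, from Python 3.11.15 and scipy 1.17.1. No molecular identifiers are mentioned. Coordinates are the table's, and 41 of 44 genes had the same ones in GENCODE M21 (GRCm38). Named were Trappc9, every member, and, of each list of other pathway genes, some or all of the 2 genes with the largest and the 2 with the smallest log2 ratio, with Zfyve20 matched as Rbsn. Neighbouring genes, overlapping genes, Mki67 and motifs were chosen after values were seen. Ratios of ratios between families or lobes were not planned, unlike those of the paralogue pairs. The members and lists were chosen with earlier results of these data known. Alternatives covered the pseudocount, the filter on low values, the scaling, the fold and the summary of a complex.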

Additional observations from a re-analysis of the deposited data

How the results depend on the processing

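The median log2 ratio of a complex minus that of all genes kept its sign under all alternatives for 7 of the 8 groups, from 0.09 to 0.17 for the TRAPP core, 0.07 to 0.13 for HOPS and −0.20 to −0.11 for Dsl1. That of the exocyst went to 0.028 among genes averaging at least 5 FPKM, where 4 of its 9 genes were left. Counts of members moved with the scaling. Rescaling to TPM moved the median of all genes by −0.19 and left 0 members higher and 7 lower by the 0.32 threshold, and 3 higher and 18 lower beyond counting error. Rescaling without the 100 most abundant genes moved the median of all genes by −0.09. It gave 0 members higher and 1 lower by fold, against 758 and 1537 of all genes tested. Beyond counting error it gave 6 and 10 members, against 13.6% and 31.9%. With a pseudocount of 5 FPKM, 1 member was higher by the 0.32 threshold, against 582 of the 13084 genes tested. At a fold of 1.5 or 2 the member count was 0. Among genes averaging at least 5 FPKM, 3 of the 35 members left were lower beyond counting error, as fewer genes were tested. The share of the 8241 genes at this filter was 16.4%. The comparison with genes of the same length was chosen after seeing the data. No paired analysis was possible because there was 1 library per genotype. Depth limits low genes most: Vps51 rested on 62 fragments in the library labelled KO and 49 in the library labelled WT.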

Other observations

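Among relatives of the members that are not part of the complexes, Trappc3l and Exoc3l averaged below 1 FPKM. Exoc3l2 and Exoc3l4 stood near the member Exoc6b, at 2.65 FPKM in the library labelled KO and 2.57 FPKM in the library labelled WT. Trappc3l, a relative of Trappc3, had 0 fragments in both libraries, where 3 fragments would be 0.156 FPKM in the library labelled KO and 0.158 FPKM in the library labelled WT. Exoc3l, a relative of Exoc3, was at 0.379 FPKM (20 fragments) in the library labelled KO and 0.765 FPKM (40 fragments) in the library labelled WT, a ratio of 0.495 with a 95% counting interval of 0.274 to 0.867. Exoc3l2 was at 2.12 FPKM in the library labelled KO and 2.37 FPKM in the library labelled WT, and Exoc3l4 at 2.57 and 2.86 FPKM in the same order, both with intervals that included 1. These genes were chosen after the values were seen.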
